A study of Mus musculus with 18 samples.

Results

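The genes described here encode 5 host defence proteins of tears and saliva: lactoperoxidase (Lpo), lactoferrin (Ltf), the scavenger receptor cysteine-rich glycoprotein Dmbt1, the polymeric immunoglobulin receptor (Pigr) and haptoglobin (Hp). Their probes were found by gene symbol in the annotation, the genes having been chosen with earlier results of these data known, and each had 1 probe, so that 5 of the 10500 probes on each array, and 5 of the 8841 genes named on it, were members. All 5 were among the 7463 probes bright enough to be tested. The mice were orchiectomized male BALB/c animals that carried testosterone or placebo pellets for 21 days, so both treatments were given to animals without testes. Lacrimal gland, meibomian gland and submandibular gland were each studied with testosterone and with placebo, which makes 6 groups of 3 pools named A, B and C, on 18 arrays of 1 colour. Per the labels a pool held 10 glands from 5 animals, although they also state 4 animals per sex and experiment, and they give no age. Each value below is the scaled intensity of a probe, a linear brightness, and group values are means ± SD over n = 3 pools. Changes are differences of log2(intensity + 0.174) ± SE from a limma fit over all 18 arrays, with Benjamini-Hochberg adjusted p-values over the 7463 probes and a threshold of 0.05. The number of arrays limits the precision of every value.

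The fluids that bathe the eye and the mouth carry proteins that kill, starve or clump microbes, made largely by acinar and ductal cells of exocrine glands. Lactoperoxidase uses hydrogen peroxide to oxidise thiocyanate to an antimicrobial product, and lactoferrin binds iron that bacteria need. Pigr carries polymeric IgA, secreted by plasma cells in the gland, across the epithelium into the fluid, where its outer part stays bound to the antibody. Dmbt1 binds bacteria and mucosal proteins, and is known in human saliva as an agglutinin. Haptoglobin binds free haemoglobin and is best known as an acute phase protein of liver, and lactoferrin is also stored in neutrophil granules.

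The arrays of the series differed in range between glands and, in part, between treatments. Their medians lay between 0.929 and 0.952. Their 99th percentiles were 134.4 to 177.5 in lacrimal pools with testosterone and 189.9 to 208.3 with placebo, against 105.9 to 148.1 with testosterone and 97.67 to 100.5 with placebo on meibomian arrays. On submandibular arrays it was 130 to 136.6 with testosterone and 128 to 135 with placebo. Lacrimal acinar markers set the lacrimal gland apart from the submandibular gland with placebo only. They summed to 2020 to 2150 against 1090 to 1180 with placebo, and to 1190 to 1720 against 997 to 1250 with testosterone. Sebocyte markers followed the labelled glands, at sums of 471 to 621 with testosterone and 393 to 414 with placebo in the meibomian gland and at most 29.1 elsewhere. Skeletal muscle markers summed to between 148 and 192 in the meibomian pools and at most 7.89 in the other glands. In the meibomian gland 2 pools stood apart for the members: all 5 were highest in pool A with testosterone and in pool B with placebo. The margin of testosterone pool A was narrow for Lpo (0.331 against 0.329 in pool C) and wider for Hp (4.28 against 3.15 in pool B). These pools were picked by the members' own values, so leaving them out is not an independent check of the members. The secretoglobin Scgb1b2 measured 9.35, 5.76 and 4.83 in meibomian pools A, B and C with testosterone, against 3.82, 98.3 and 3.4 with placebo. Submandibular arrays were bright for it as well, at 431 to 467, against 597 to 1040 on lacrimal arrays. Car6, another lacrimal acinar marker, was lowest in meibomian placebo pool B (5.08, 3.87 and 4.88 in pools A, B and C). Lpo was highest in that pool (0.285, 0.707 and 0.264), far under its lacrimal placebo mean of 493. The part of lacrimal RNA in the 2 pools that stood apart was not tested, and meibomian results are given with and without them. RNA came from whole glands, so fewer cells of a type and less RNA per cell cannot be told apart.

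With testosterone, 4 of the 5 members were lower in the lacrimal gland, the gland in which each member's probe was brightest. Dmbt1, Hp, Pigr and Ltf fell there, and Lpo did not pass the threshold. Of all tested probes 14.8% were called lower in that comparison. In the meibomian gland Hp rose and no other member passed, where 0.469% of probes were called higher and 0.121% lower. Hp was likewise the 1 member that rose in the submandibular gland, where 8.54% were called higher and 5.25% lower. With 3 pools against 3 an exact permutation test cannot give a p below 0.1, so the calls rest on the spread shared by all arrays.

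**Figure D1:**
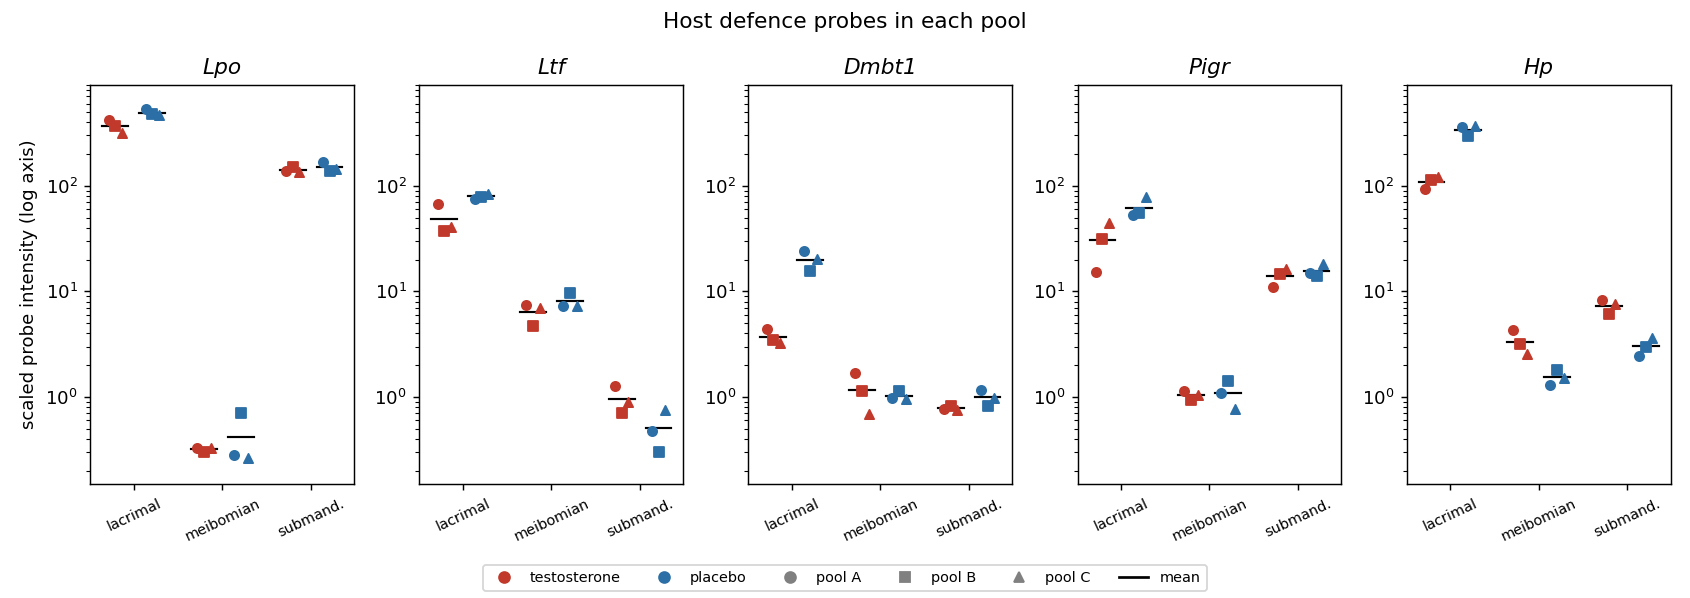
Scaled probe intensity (log axis) of the 5 members in each pool, with testosterone to the left of placebo for each gland; marker shapes are pools and bars are group means. In the lacrimal gland Dmbt1 lies at 3.27 to 4.44 with testosterone and 15.6 to 24 with placebo, while Hp lies above its placebo pools in the other 2 glands.

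Dmbt1 showed the steepest fall of the 5. Lacrimal pools A, B and C measured 4.44, 3.47 and 3.27 with testosterone, against 24, 15.6 and 20.2 with placebo. The groups were far apart, at 3.73 ± 0.622 and 19.9 ± 4.24, and the change was -2.35 ± 0.23 (adjusted p = 5.23e-07), or 5.12-fold lower. It stayed called under each of 32 alternative settings, with changes from -2.52 to -1.98. Meibomian Dmbt1 measured 1.69, 1.14 and 0.692 with testosterone, against 0.972, 1.13 and 0.955 with placebo, so the placebo pools lay inside the range of the testosterone pools (0.11 ± 0.23, adjusted p = 0.878). Without the 2 pools that stood apart this change was -0.09 ± 0.23. In the submandibular gland it measured 0.776, 0.821 and 0.751 with testosterone, against 1.17, 0.829 and 0.987 with placebo. These groups did not overlap but were separated by a narrow margin, and the change did not pass (-0.28 ± 0.23, adjusted p = 0.456).

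The lacrimal gland was set apart from the others by Dmbt1 to a smaller extent with testosterone. With testosterone the lacrimal mean was 3.01-fold above the meibomian and 4.05-fold above the submandibular one on the offset scale, against 16.6-fold and 17-fold with placebo. The difference between glands in the testosterone effect passed for both pairs, at -2.47 ± 0.32 for lacrimal minus meibomian (adjusted p = 3.18e-05) and -2.07 ± 0.32 for lacrimal minus submandibular (adjusted p = 0.000149). In the order of the 6 group means, lacrimal placebo was highest and lacrimal testosterone second, each called above the next. The 4 groups of the other glands followed without a call between any neighbours.

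Haptoglobin moved in opposite directions between glands. Lacrimal Hp measured 93.7, 113 and 121 in pools A, B and C with testosterone, against 358, 296 and 364 with placebo, and the highest testosterone pool lay well under the lowest placebo pool. The means were 109 ± 14.2 and 339 ± 37.7, a fall of 3.1-fold (-1.63 ± 0.19, adjusted p = 5.4e-06). Submandibular pools measured 8.32, 6.06 and 7.58 with testosterone, against 2.43, 2.96 and 3.64 with placebo, again without overlap and now with testosterone higher (1.24 ± 0.19, adjusted p = 0.00031). Meibomian pools measured 4.28, 3.15 and 2.55 with testosterone, against 1.31, 1.8 and 1.51 with placebo, where the groups were also apart (1.01 ± 0.19, adjusted p = 0.0207).

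The lacrimal and submandibular changes of Hp passed under each of 32 alternatives, from -1.73 to -1.15 and from 1.11 to 1.38. The meibomian rise kept its direction, from 0.71 to 1.18, but lost its call without any 1 of meibomian placebo pools A, B and C (adjusted p = 0.157, 0.0966 and 0.104) or testosterone pools A and B (adjusted p = 0.139 and 0.116), and with the 2 pools that stood apart left out it was 0.93 ± 0.20 (adjusted p = 0.295), a setting under which 0 of all probes were called in that gland. The opposite effects were tested directly, at -2.64 ± 0.27 for lacrimal minus meibomian (adjusted p = 2.26e-06) and -2.87 ± 0.27 for lacrimal minus submandibular (adjusted p = 8.02e-07). Submandibular and meibomian effects differed by 0.23 ± 0.27, which did not pass (adjusted p = 0.662). Of the 7463 probes 108, or 1.45%, were called lower in the lacrimal and higher in the submandibular gland. In the fit as reported Hp was the 1 probe, 0.0134% of all, called lower in the lacrimal gland and higher in both others. This count is bounded by the 44 meibomian calls, which numbered 246 with the gland fitted alone and 2661 with array weights.

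The level of Hp still separated the glands by a wide margin. With testosterone the lacrimal mean was 31.8-fold above the meibomian and 14.7-fold above the submandibular mean, against 199-fold and 107-fold with placebo. The 6 group means ran from lacrimal placebo through lacrimal testosterone, submandibular testosterone, meibomian testosterone and submandibular placebo to meibomian placebo. All neighbours in that order differed by a call except meibomian testosterone and submandibular placebo (0.12 ± 0.19, adjusted p = 0.58).

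**Figure D2:**
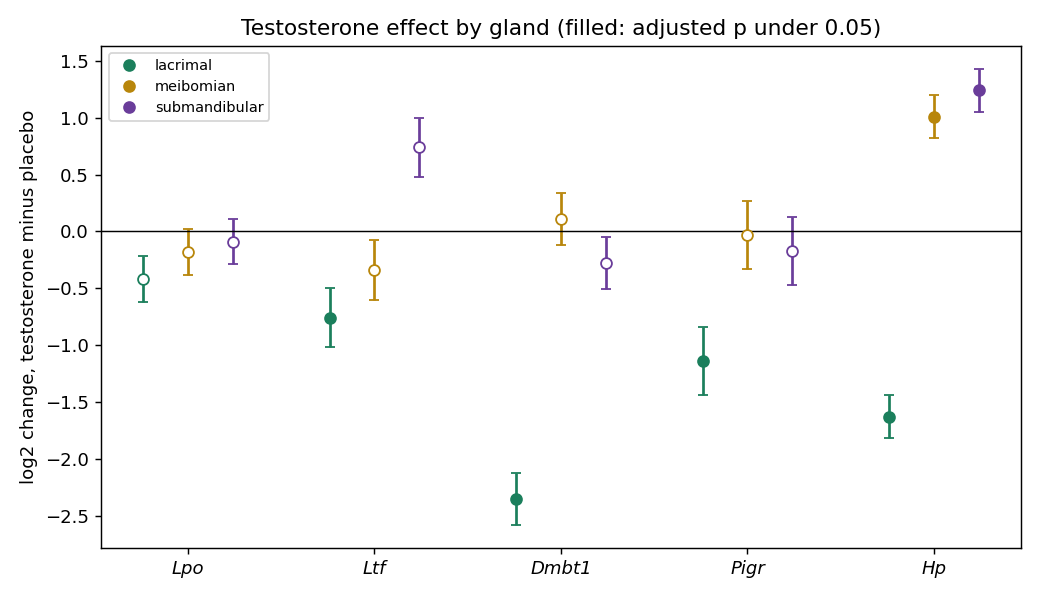
Log2 change, testosterone minus placebo, of each member in the lacrimal, meibomian and submandibular gland; bars are SE and filled points have an adjusted p under 0.05. Hp lies at -1.63 in the lacrimal gland and above 0 in the other 2 glands, and Dmbt1 has the lowest point at -2.35.

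The antibody transporter Pigr fell in the lacrimal gland, with a wide spread between pools. Pools A, B and C measured 15.1, 31.5 and 44.3 with testosterone, against 53.3, 55.7 and 77.6 with placebo. Testosterone pool A was the low one and pool C came near the lowest placebo pool, though the groups did not overlap. The means were 30.3 ± 14.6 and 62.2 ± 13.4, and the change was -1.14 ± 0.30 (adjusted p = 0.00829), or 2.21-fold lower. Without testosterone pool A the change was -0.71 ± 0.23 (adjusted p = 0.033). Scaling the arrays of a gland to a common 99th percentile ended the call, at -0.76 ± 0.34 (adjusted p = 0.0996), a setting that moved the median of all lacrimal probes from -0.07 to 0.27.

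In the other glands Pigr showed no called change. Submandibular pools measured 11.1, 14.7 and 16.3 with testosterone, against 14.9, 14 and 18.2 with placebo, and the groups overlapped (-0.17 ± 0.30, adjusted p = 0.757). Meibomian pools measured 1.15, 0.938 and 1.04 with testosterone, against 1.1, 1.41 and 0.769 with placebo, with the testosterone pools inside the placebo range (-0.03 ± 0.30, adjusted p = 0.975), and the change was 0.08 ± 0.37 without the 2 pools that stood apart. The lacrimal effect was lower than the meibomian by -1.11 ± 0.42 (adjusted p = 0.0798) and than the submandibular by -0.97 ± 0.42 (adjusted p = 0.109), so a difference between glands was not called. Both differences passed without lacrimal testosterone pool C, the testosterone pool nearest to placebo, at -1.45 ± 0.38 and -1.31 ± 0.38 (adjusted p = 0.0174 and 0.0239). At the other end of the fits with 1 array left out they were -0.68 and -0.54. The adjusted p-values of those fits reached 0.196 and 0.226. In level, lacrimal pools were highest, submandibular next and meibomian lowest. With testosterone the lacrimal mean was 1.98-fold above the submandibular one (adjusted p = 0.0103), against 3.89-fold with placebo, and the call with testosterone ended without lacrimal testosterone pool C (0.65 ± 0.28, adjusted p = 0.0713).

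Lactoferrin had the weakest of the lacrimal falls that passed. Pools A, B and C measured 66.7, 37.6 and 40.5 with testosterone, against 75.3, 79 and 83.9 with placebo. Pool A stood nearer to the placebo pools than to the other testosterone pools, and the groups did not overlap. The means were 48.2 ± 16 and 79.4 ± 4.29, and the change was -0.76 ± 0.26 (adjusted p = 0.0395), or 1.7-fold lower. This call ended without any 1 of lacrimal placebo pools A, B and C (adjusted p = 0.0678, 0.0857 and 0.0991) and without testosterone pool B or C (adjusted p = 0.153 and 0.134). It also ended with quantile normalization over all arrays (-0.66 ± 0.27, adjusted p = 0.0772). With a common 99th percentile the change was -0.38 ± 0.25 (adjusted p = 0.259). Among the brightest 10% of lacrimal probes (746), which include Ltf, the median change was -0.16 and the 10th percentile -0.79. The Ltf change of -0.76 lay inside that range, so its size was not unusual for a bright lacrimal probe. Pigr (-1.14) and Hp (-1.63), in the same brightness class, lay below it. Dmbt1 (-2.35) lay below the 10th percentile of its own class (-0.67).

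Ltf was dim in the submandibular gland. Its pools measured 1.27, 0.704 and 0.889 with testosterone, against 0.474, 0.3 and 0.761 with placebo, and the probe lay above the 40th percentile of its array in 3 of 3 testosterone pools and 1 of 3 placebo pools. The groups overlapped in pool C with placebo, and the change of 0.74 ± 0.26 did not pass (adjusted p = 0.0731). Without that pool it passed at 1.0 ± 0.26 (adjusted p = 0.0256), and also without testosterone pool B (0.91 ± 0.29, adjusted p = 0.0497). Meibomian Ltf measured 7.44, 4.68 and 6.99 with testosterone, against 7.24, 9.6 and 7.28 with placebo, with overlap (-0.34 ± 0.26, adjusted p = 0.593), and the change was -0.33 ± 0.33 without the 2 pools that stood apart. It was called lower when arrays were weighted by quality (-0.62 ± 0.16, adjusted p = 0.0069).

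The lacrimal effect on Ltf lay below the submandibular one by -1.51 ± 0.37 (adjusted p = 0.00736), and this difference passed under each of 29 alternatives, from -1.77 to -1.21. Lacrimal minus meibomian was -0.42 ± 0.37 (adjusted p = 0.512), and submandibular minus meibomian was 1.09 ± 0.37 (adjusted p = 0.0884). Ltf was the 1 member called lower in the submandibular than in the meibomian gland with both treatments. The submandibular mean was 0.954 ± 0.288 against a meibomian mean of 6.37 ± 1.48 with testosterone (-2.54 ± 0.26, adjusted p = 3.31e-07), and 0.511 ± 0.233 against 8.04 ± 1.35 with placebo (-3.63 ± 0.26, adjusted p = 4.13e-09). Since the submandibular placebo probe was dim, the size with placebo depended on the offset, from -3.94 to -2.86.

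Lactoperoxidase was bright on the lacrimal and submandibular arrays and near the low end of the meibomian ones. Lacrimal pools A, B and C measured 418, 371 and 319 with testosterone, against 532, 482 and 464 with placebo. The groups did not overlap, as was true of 21.5% of all probes in the same direction, and the change of -0.42 ± 0.20 did not pass (adjusted p = 0.127). It lay between the 10th percentile (-0.79) and the median (-0.16) of changes among the brightest 10% of lacrimal probes. On those arrays the 99th percentile was 177.5, 148.7 and 134.4 with testosterone, in the same pool order as Lpo, against 189.9, 208.3 and 199.3 with placebo, where pool A was highest for Lpo and lowest for the percentile. With quantile normalization over all arrays the Lpo change was 0.03 ± 0.16 (adjusted p = 0.908), within the gland 0.04 ± 0.20, and with a common 99th percentile -0.04 ± 0.20. Lpo lay above the 99th percentile of every lacrimal array. These scalings tie the bright ends of the arrays together, so a small Lpo change under them is in part set by the method. The Lpo change passed with a larger offset (-0.42 ± 0.14, adjusted p = 0.0349) and without meibomian placebo pool B (-0.42 ± 0.12, adjusted p = 0.0144), the pool with the high meibomian Lpo value.

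Submandibular Lpo measured 138, 151 and 134 with testosterone, against 166, 139 and 145 with placebo, and the groups overlapped (-0.09 ± 0.20, adjusted p = 0.816). In the meibomian gland it measured 0.331, 0.303 and 0.329 with testosterone, against 0.285, 0.707 and 0.264 with placebo. Only placebo pool B, 1 of those 6, was above the 40th percentile of its array, so the meibomian values give a low level without an order. The change was -0.18 ± 0.20 (adjusted p = 0.731), and 0.13 ± 0.15 without the 2 pools that stood apart. Between lacrimal and meibomian glands the log2 difference was 9.54 ± 0.20 with testosterone and 9.77 ± 0.20 with placebo. Its size depended on the offset, from 8.81 to 10.18 with placebo when the offset was 4 times larger or smaller. The lacrimal mean was 2.61-fold above the submandibular one with testosterone and 3.29-fold with placebo. With quantile normalization over all arrays these log2 differences were 1.11 ± 0.16 with testosterone and 0.98 ± 0.16 with placebo, so the order of the treatments turned. Each gland was called apart from the next, while no treatment pair was.

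**Figure D3:**
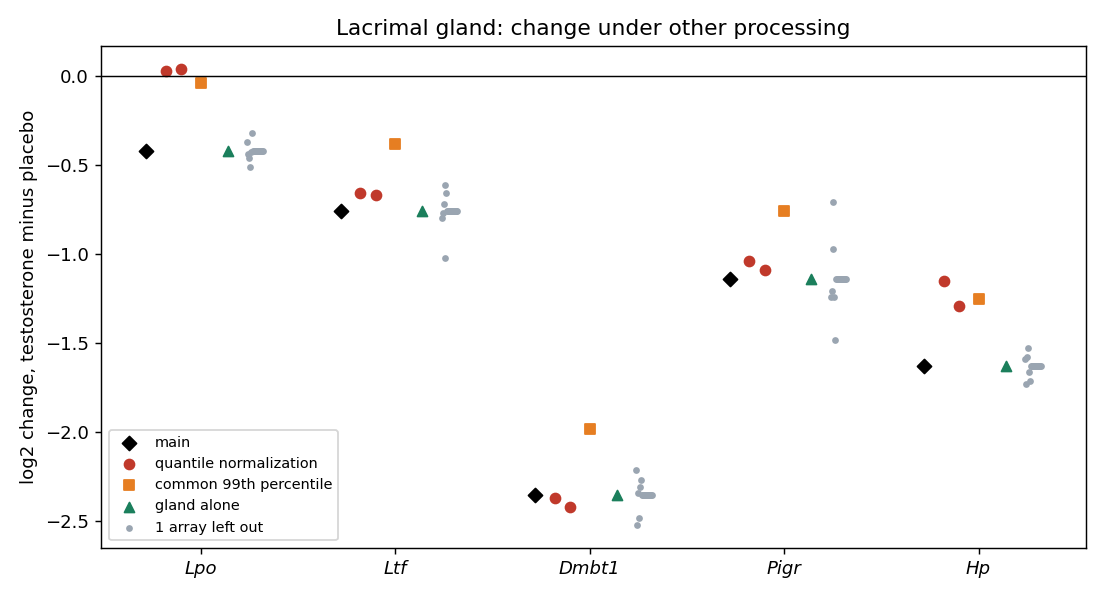
Lacrimal log2 change, testosterone minus placebo, of each member in the fit as reported (black), with quantile normalization over all arrays and within the gland (red), a common 99th percentile (orange), the gland fitted alone (green) and 1 array left out at a time (grey). Lpo lies between -0.04 and 0.04 with the quantile and 99th percentile scalings, which tie the bright ends of the arrays together, while Dmbt1 stays between -2.52 and -1.98.

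Across the glands the members shared a lacrimal maximum. All 5 were called higher in the lacrimal than in the meibomian gland with testosterone and with placebo, where 36.9% and 38.7% of all probes were called higher. All 5 were also called higher in the lacrimal than in the submandibular gland, where the shares were 28.3% with testosterone and 26.2% with placebo. Between the submandibular and meibomian glands Lpo, Pigr and Hp were called higher in the submandibular gland in both treatments and Ltf lower, and Dmbt1 was not called. In that pair 35.7% of probes were called higher and 31.5% lower with testosterone, and 36% and 30.6% with placebo. In the fit as reported 2 of the 5, Dmbt1 and Hp, had a more negative testosterone effect in the lacrimal than in the meibomian gland, where 10.6% of probes were called lower. Against the submandibular gland 3 did (Ltf, Dmbt1 and Hp), where 13.8% were. Between the submandibular and meibomian effects no member passed in limma, with Ltf at an unadjusted p of 0.0101, where 7.4% of all probes were called. Comparisons of the lacrimal gland with the other 2 share the lacrimal arrays.

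Within the lacrimal testosterone group the members did not follow 1 order of pools. Lpo, Ltf and Dmbt1 were highest in pool A, where Pigr and Hp were lowest. Over the 18 arrays, after subtraction of the group means, the 10 pairs of members had Pearson correlations from -0.205 for Ltf and Pigr to 0.419 for Dmbt1 and Hp. These are descriptions over arrays that share a scaling, and without that subtraction Lpo and Pigr had the highest, at 0.971, since both were bright in the lacrimal and submandibular glands and low in the meibomian gland.

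RefSeq promoter sequences (GRCm38.p6) were at hand for Pigr, Ltf and Lpo. The 250 bases before the start are shown for Pigr and Ltf, both of which fell in the lacrimal gland, with capitals marking the 1 match found in each. The Pigr window is chr1:130826434-130826683 on the plus strand and the Ltf window is chr9:111019042-111019291 on the plus strand.
Pigr: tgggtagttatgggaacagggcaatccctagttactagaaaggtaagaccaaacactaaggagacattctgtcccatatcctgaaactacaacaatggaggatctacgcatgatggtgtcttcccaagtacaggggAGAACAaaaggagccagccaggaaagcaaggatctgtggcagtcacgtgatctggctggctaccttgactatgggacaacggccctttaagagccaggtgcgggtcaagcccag
Ltf: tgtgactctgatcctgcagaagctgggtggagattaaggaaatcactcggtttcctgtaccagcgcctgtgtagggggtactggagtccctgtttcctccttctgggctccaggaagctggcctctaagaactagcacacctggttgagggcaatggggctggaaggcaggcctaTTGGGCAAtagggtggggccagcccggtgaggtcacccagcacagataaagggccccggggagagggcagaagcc
The capitals in Pigr are AGAACA, a unit of the androgen response element, from -114 to -109 relative to the start. The capitals in Ltf match TTNNGCAA, a pattern of C/EBP factors, from -75 to -68. Both strands were searched, and of 32851 promoter windows of this length 16.1% hold AGAACA and 9.56% hold TTNNGCAA. The paired element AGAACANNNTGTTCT, which contains AGAACA, was in none of the 3 windows and in 0.00913% of all. The STAT pattern TTCNNNGAA (7.02% of all windows) and TATAAA (12.4%) were in none of the 3 either, and the Lpo window held none of these patterns. A match is a description of letters and says nothing of binding.

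Genes related to the members went both ways in the lacrimal gland. These lists were chosen with earlier results of the data known, and counts leave the 5 members out. Of 18 tested probes of immunoglobulin transport and plasma cells 6 rose and 3 fell, with a median change of -0.02 against -0.07 over all probes. Pou2af1, a B cell coactivator, measured 6.94 ± 0.789 with testosterone and 0.923 ± 0.231 with placebo (2.71 ± 0.23, adjusted p = 1.55e-07). Ccl28, a chemokine that draws IgA plasma cells to mucosa, measured 40.3 ± 2.38 with testosterone and 14.5 ± 2.41 with placebo (1.47 ± 0.15), and the cytokine Il6 rose by 1.26 ± 0.20. The falls were Xbp1 (-0.75 ± 0.23) and Irf4 (-0.75 ± 0.15), both transcription factors of plasma cells, and Tnfsf13b, the B cell survival factor BAFF. Tnfsf13b was dim there, above the 40th percentile in 0 of 3 testosterone and 2 of 3 placebo pools, and Il6 was dim in all 3 placebo pools. In the submandibular gland the B cell receptor Cd22 was the 1 probe of this list called, and it fell (-1.30 ± 0.41, adjusted p = 0.0444). The lacrimal shares over all probes were 13.3% called higher and 14.8% lower.

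Of 18 tested probes for secreted antimicrobial proteins other than Ltf, 4 rose and 3 fell in the lacrimal gland, with a median of -0.03. Bpifb2, a protein of the lipopolysaccharide-binding family, measured 10.8 ± 0.711 with testosterone and 0.568 ± 0.169 with placebo (3.91 ± 0.19, adjusted p = 1.08e-10). Reg2 and the neutrophil granule protein Ngp rose by 0.80 ± 0.20 and 0.72 ± 0.18 from low levels. Bpifb2 was above the 40th percentile in 1 of 3 placebo pools. The ribonuclease Rnase4 and Wfdc18, a protein with a whey acidic protein domain, fell by 0.97 and 0.57 on the log2 scale. The third call, the defensin Defb1, was dim in all 6 lacrimal pools, at 0.278 ± 0.0925 with testosterone and 0.531 ± 0.0688 with placebo, and passed the filter through the meibomian gland. In the submandibular gland Wfdc18 rose, at 260 ± 28.3 with testosterone and 153 ± 28.7 with placebo (0.77 ± 0.15, adjusted p = 0.00252), and it was the 1 such probe called there.

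The acute phase, haem and iron list other than Hp had 3 lacrimal rises and 6 falls among 18 tested probes, with a median of -0.50 against -0.07 over all probes. Of all probes 13.3% were called higher and 14.8% lower there. Fgg, a fibrinogen chain, measured 3.27 ± 0.48 with testosterone and 0.302 ± 0.126 with placebo (2.88 ± 0.25), and the protease inhibitor Serpina3n rose by 1.24 ± 0.23. Both were dim in all 3 lacrimal placebo pools. The third rise was the transferrin receptor Tfrc (0.40 ± 0.12). Hmox1, the enzyme that breaks down haem, measured 3.45 ± 0.312 with testosterone and 7.17 ± 0.576 with placebo (-1.02 ± 0.11, adjusted p = 1.79e-06), and the copper protein Cp and the brighter of 2 Stat3 probes, a factor that relays interleukin signals, fell by 0.84 and 0.66, with Cp dim in all 3 testosterone pools. Submandibular Hmox1 rose by 0.56 ± 0.11 and Tfrc by 1.18 ± 0.12, and Cebpa fell (-0.57 ± 0.18). Cebpa was dim in all 3 submandibular testosterone pools. No member of this list other than Hp was called in the meibomian gland.

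For the peroxidase list, none of 8 tested probes other than Lpo rose in the lacrimal gland and 2 fell. Sod1, which makes hydrogen peroxide from superoxide, measured 21.4 ± 2.01 with testosterone and 49.2 ± 2.35 with placebo (-1.20 ± 0.17, adjusted p = 5.8e-05), and catalase (Cat) fell by 0.50. Gpx1 rose in the submandibular gland (0.89 ± 0.14). Among 16 scavenger and pattern recognition probes other than Dmbt1, Fcna alone was called in the lacrimal gland (-0.69 ± 0.24, adjusted p = 0.0447). Fcna was above the 40th percentile there in 1 of 3 testosterone and 2 of 3 placebo pools. In the submandibular gland, where 8.54% of all probes were called higher and 5.25% lower, 5 rose and 1 fell, led by the endotoxin receptor Cd14 at 15.3 ± 2.83 with testosterone and 5.38 ± 0.192 with placebo (1.47 ± 0.20), with Scarb1 (1.13 ± 0.23) and Cd5l (1.11 ± 0.17) next and Tlr4 lower (-0.73 ± 0.18). Cd5l was dim in all 3 submandibular placebo pools.

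**Figure D4:**
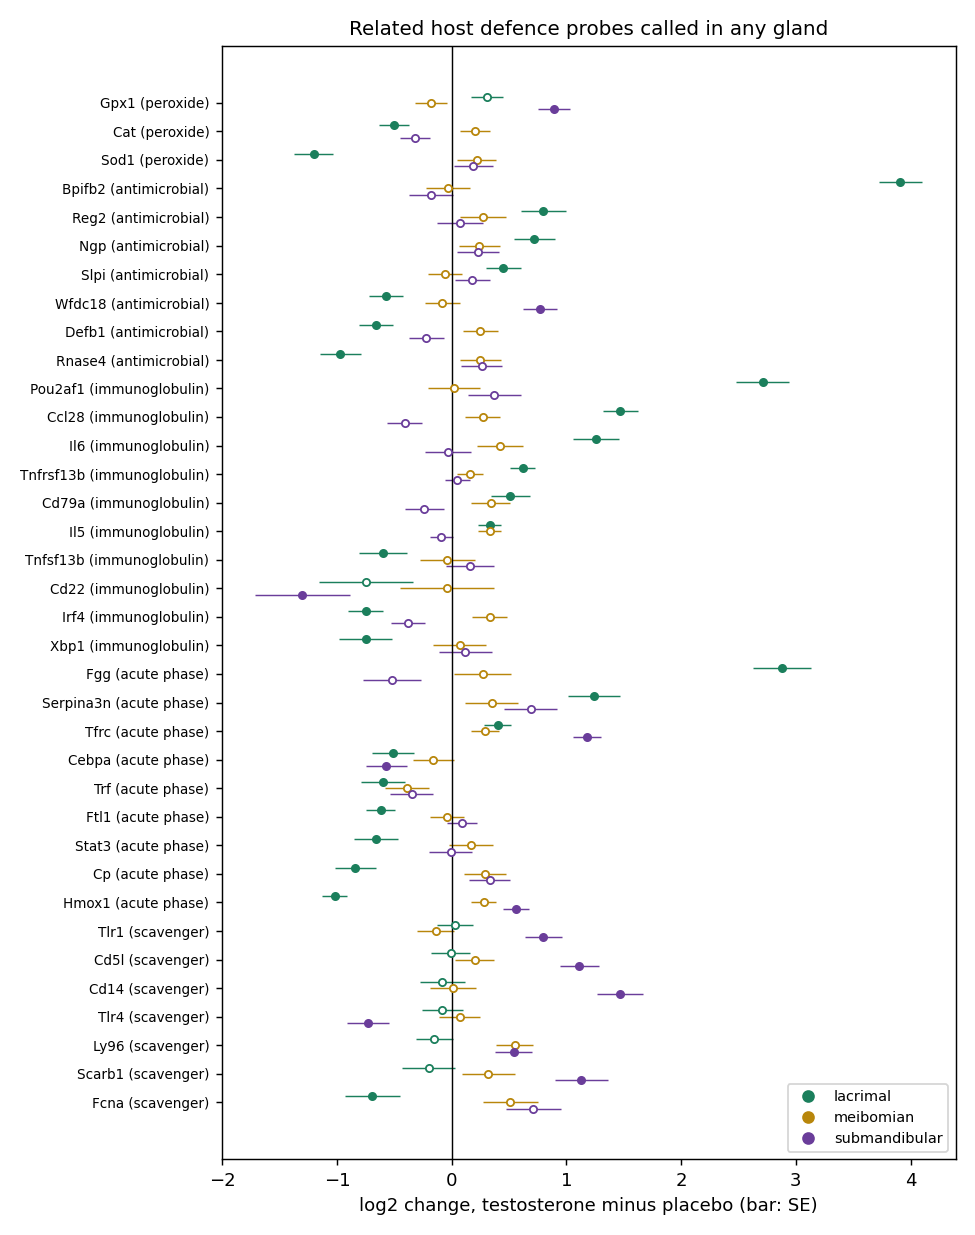
Log2 change, testosterone minus placebo, of related host defence probes called in at least 1 gland, by list, for the lacrimal, meibomian and submandibular gland; bars are SE and filled points have an adjusted p under 0.05. Bpifb2 lies highest at 3.91 in the lacrimal gland, and no meibomian point is filled.

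Markers of cells that could carry the members were read beside them. Of 14 neutrophil markers 10 were on the array, and they summed to 8.17 to 9.83 with testosterone and 7.61 to 8.81 with placebo in the lacrimal gland. Submandibular neutrophil sums were 7.29 to 9.25 with testosterone and 6.54 to 7.61 with placebo, and meibomian ones 7.14 to 8.04 and 6.2 to 7.85. Ctsg, at 4.43 with testosterone and 3.94 with placebo in the lacrimal gland, made up much of the sum. The listed neutrophil genes Mpo, Elane and Camp were dim in every group. Of 6 tested neutrophil probes 1 was called in the lacrimal gland, Ngp, which rose (0.72 ± 0.18), and the median change of the 6 was 0.14. Adipocytes also make haptoglobin, and the 6 adipocyte markers on the array summed to 5.21 to 8.32 with testosterone and 7.82 to 9.66 with placebo in the lacrimal gland, where Retn (-0.73 ± 0.22) and Cebpa (-0.51 ± 0.18) fell as Hp did. Lacrimal Adipoq (-0.90 ± 1.02), Fabp4 (-0.26 ± 0.25), Lipe (-0.10 ± 0.27) and Pck1 (0.13 ± 0.36) were not called. The adipocyte markers summed to 45.3 to 49.2 with testosterone and 51.4 to 145 with placebo in the submandibular gland, where Retn, Fabp4 and Cebpa fell while Hp rose. In the meibomian gland they summed to 16.8 to 25.2 with testosterone and 24.5 to 29.2 with placebo, and Retn fell there while Hp rose. Plasma cell and B cell markers, 7 of 11 on the array, summed to 96.7 to 106 with testosterone and 64.5 to 75 with placebo in the lacrimal gland, where Pigr fell. Cd79a (0.51 ± 0.17) and Pou2af1 (2.71 ± 0.23) were called higher there. Jchain (0.46 ± 0.19), Tnfrsf17 (-0.12 ± 0.18), Cd79b (-0.40 ± 0.31) and Cd22 (-0.75 ± 0.41) were not called. Jchain and Cd79a, at 44.5 and 47.6 with testosterone, made up most of the sum. Lacrimal acinar markers, 5 of 7 on the array with Lpo among them, summed to 1190 to 1720 with testosterone and 2020 to 2150 with placebo, and Car6, 1 of the 3 bright probes Scgb1b2, Car6 and Lpo that make up most of the sum, fell (-1.01 ± 0.17, adjusted p = 0.000267). Aqp5 (-0.24 ± 0.15, adjusted p = 0.288), Bhlha15 (0.01 ± 0.33, adjusted p = 0.989) and Scgb1b2 (-0.42 ± 0.81, adjusted p = 0.75) were not called. Macrophage and MHC class II markers, 8 of 10 on the array, summed to 35.5 to 37.8 with testosterone and 43.6 to 50.4 with placebo in the lacrimal gland, where the antigen presentation genes H2-Aa (-0.60 ± 0.21) and Cd74 (-0.53 ± 0.16) fell. The macrophage genes Msr1, Mrc1, Lyz2 and Cd14 had uncalled lacrimal changes of 0.45, 0.18, 0.17 and -0.08. Meibomian sums were 46.4 to 73.4 with testosterone and 73.7 to 91.7 with placebo, and Cd74 fell (-0.87 ± 0.16). Meibomian Msr1, Mrc1, Lyz2 and Cd14 had uncalled changes of 0.29, 0.09, -0.12 and 0.01. Submandibular sums were 64.8 to 74.2 with testosterone and 60.2 to 66.1 with placebo, where Cd14 and Mrc1 rose and H2-Aa, H2-Eb1 and Cd74 had uncalled changes of -0.22, -0.15 and -0.19. The part of these markers in the changes of the members was not tested.

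The probes whose pattern over the 18 arrays was most like each member's are given as a description, by Pearson correlation of log2 values. For Dmbt1 they were Emc6, Tk2 and Orc1 (0.966, 0.965 and 0.962). Tk2 averaged 4.15 with testosterone and 18.5 with placebo in the lacrimal gland. For Hp they were Htr1b, Ccdc96 and Sag (0.984, 0.984 and 0.983), and Htr1b averaged 71.6 with testosterone and 210 with placebo in that gland. Pigr was most like Tspan13, Preb and Cpd (0.991, 0.989 and 0.986), Lpo most like Aass, Tex15 and Rab4a (0.996, 0.995 and 0.995), and Ltf most like Tex19.2, Tbx15 and Akr1c20 (0.979, 0.975 and 0.974). These values rest largely on the differences between glands, and the arrays share their scaling.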

How the data were processed

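The deposited table held scaled probe intensity from 18 one-colour arrays. The array, scanner, background subtraction and scaling are not given in the sources used here. A value of -1 (37 to 118 probes per array) was read as no value, and other values below 0 were set to 0. Values were changed to log2(value + 0.174), with an offset at the 10th percentile of values above 0. A probe was tested if each group had 2 or more values and if 3 or more arrays held it above their own 40th percentile. This removed 146 probes with too few values and 2891 dim ones. The annotation gave 1 symbol for 8983 probes, several for 1 and none for 1516. It is GEO's platform annotation, and 8975 probes matched a RefSeq gene with 0 changed symbols.

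A mean per group was fitted with limma 3.58.1 (R 4.3.3, eBayes with a trend, 12 residual degrees of freedom). Contrasts were testosterone against placebo by gland, their differences between glands, and all pairs of groups. The members and lists were chosen with earlier results of these data known. Named besides the members are the 3 most similar probes of each, up to 3 rises and 3 falls per list and gland, and up to 3 called markers per list and gland. Scgb1b2 was looked at after its values were seen. The main fit did not pair samples by pool letter. Correlations of residuals between testosterone and placebo pools of 1 letter ran from -0.109 to 0.138 over 9 pairs. Those between glands for pools of 1 letter and treatment ran from -0.065 to 0.132 over 18 pairs. Low correlations over all probes cannot exclude a pairing that matters for single genes. Whether pools of 1 letter came from the same animals is not given. P-values measure the spread between pools. Alternatives were each gland alone, 2 other offsets, 2 other filters, 2 quantile normalizations, -1 as 0, no trend, array weights, a replicate block and each array left out. Added after seeing the data were a common 99th percentile within glands, leaving out 2 meibomian pools, and a random block of treatment and letter across glands. Figures used matplotlib 3.10.9.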

Additional observations from a re-analysis of the deposited data

Results flagged for a closer look

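For 3 members the testosterone effect differed between glands in a test of the difference itself. For Hp, which fell in the lacrimal and rose in the submandibular gland, with a meibomian rise that kept its call in 23 of 32 alternative settings, it was -2.64 ± 0.27 for lacrimal minus meibomian and -2.87 ± 0.27 for lacrimal minus submandibular. For Dmbt1 it was -2.47 ± 0.32 and -2.07 ± 0.32, where lacrimal Dmbt1 fell and neither other gland had a call. For Ltf it was -1.51 ± 0.37 for lacrimal minus submandibular. All 5 differences passed under each of 29 alternative settings.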

How the results depend on the processing

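Of 1755 recomputed values of members, 1698 kept their direction and their side of the threshold, 21 lost a call, 17 gained one and 19 changed sign, and the causes were not tested. In the lacrimal gland 4 members were called, and 2 with a common 99th percentile, which moved the median change of all probes there to 0.27 and in the meibomian gland to -0.22. In the meibomian gland 1 was called. This count was 0 with quantile normalization within each gland, with a replicate block, with a common 99th percentile and without the 2 pools that stood apart, and 2 with array weights. In the submandibular gland 1 was called, and 2 with quantile normalization over all arrays. For submandibular minus meibomian effects 0 were called, and 1 with array weights. Leaving out each array in turn gave 3 to 5 calls in the lacrimal gland, 0 to 1 in the meibomian, 1 to 2 in the submandibular, and 0 to 1 for submandibular minus meibomian effects. Signs changed with quantile normalization over all arrays for Lpo in the lacrimal gland (0.03), for its lacrimal minus meibomian effect (0.19) and for its lacrimal minus submandibular effect (0.13), and within glands for lacrimal Lpo (0.04). Meibomian Dmbt1 was -0.18 with a common 99th percentile. Without the 2 meibomian pools, meibomian Dmbt1 was -0.09, Lpo 0.13 and Pigr 0.08, Dmbt1 between submandibular and meibomian placebo glands 0.03, and the submandibular minus meibomian effect on Lpo -0.21. Leaving out each array gave ranges across 0 for meibomian Dmbt1 (-0.16 to 0.40), Lpo (-0.36 to 0.14) and Pigr (-0.23 to 0.15). The same held for the submandibular minus meibomian effects on Lpo (-0.23 to 0.27) and Pigr (-0.32 to 0.06), and for Dmbt1 between these glands with placebo (-0.14 to 0.07). With the replicate block lacrimal Ltf (adjusted p = 0.054) and meibomian Hp (adjusted p = 0.115) lost their calls, and Pigr gained calls for lacrimal minus meibomian (adjusted p = 0.0387) and lacrimal minus submandibular effects (adjusted p = 0.0494). A random replicate block across glands, with an estimated correlation of 0.022, changed no count of members called. Over all probes the meibomian comparison had 44 calls, against 246 with the gland fitted alone, 2661 with array weights and 0 with the replicate block, and the submandibular one had 1029, against 409 with the gland alone. Of 960 counts of related genes, 122 moved by over 1.5 times.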
